A study of Mus musculus with 6 samples.

Results

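The genes described are the intracellular SMAD signal transducers Smad1 to Smad7, the ligand gene Tgfb1 and the receptor genes Tgfbr1 and Tgfbr2. They were chosen by gene symbol, and all 10 were found among the 54532 genes of the deposited count table, each in 1 row. RNA sequencing was done on L929 cells, a mouse fibroblast line kept as a clone in culture and widely used to study killing by tumour necrosis factor. The 3 treated libraries came from wild-type L929 cells given TNF-α, an inflammatory cytokine, at 10 ng/ml together with actinomycin D, which binds DNA and blocks transcription, at 1 µg/ml for 12 hours. The 3 control libraries came from wild-type L929 cells named as controls by title and treatment label, although their protocol field repeats the text on both agents. No group received either agent alone, so each difference belongs to the combination. Whether replicates were grown separately is not given in the labels, and the spread behind each p-value may therefore be technical.

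TGF-β acts on nearly every cell type and is best known in fibroblasts for driving collagen and matrix genes. The ligand binds the type II receptor, which activates the type I receptor. That kinase then phosphorylates Smad2 and Smad3, while the related BMP receptors use Smad1 and Smad5. Both kinds of receptor-activated SMAD join the common partner Smad4 and enter the nucleus. Smad6 and Smad7 lack the activation tail, block the receptors and are themselves classic target genes of the pathway, which makes them its negative feedback arm.

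Library totals ran from 16448477 to 17705511 counts in treated cells and from 16056207 to 18036322 in controls. Genes detected by at least 1 count numbered 15705, 17688 and 18849 in treated replicates 1, 2 and 3, and 19219 to 20116 in controls. The 10 genes together held 1362 to 2202 counts in a treated library and 7957 to 9015 in a control library. Of 12 fibroblast markers, 8 could be tested, of which 6 were higher and 2 lower in treated cells. Of all tested genes, 34.6% were higher and 40.2% lower. The fibroblast markers summed to 17300 to 20400 CPM in treated cells and 5850 to 7590 CPM in controls. Lum, Dcn and Fap were at 0 in every library. Marker sums depend on the TMM scaling described below. Scaling by library size alone lowers the median log2 change of all genes by 1.03. Summed macrophage markers (6 genes) stood at 43.9 to 55.4 CPM in treated cells and 3.88 to 4.8 CPM in controls, nearly all of it Cd68 and Lyz2. Cd68 and Lyz2 were called higher in treated cells (log2 3.79 and 3.72). Csf1r, with 33 counts over the treated and 49 over the control libraries, was not called. Ptprc, Adgre1 and Itgam had 0 counts in treated libraries. Summed epithelial markers reached 9.85 to 12.8 CPM against 2.74 to 3.99 CPM, mostly Krt14, with Epcam and Krt5 at 0. Lymphocyte markers summed to 2.65 to 4.06 CPM against 0.327 to 0.435 CPM, and endothelial ones to at most 0.458 CPM against at most 0.58 CPM. Krt14 and the lymphocyte marker Cd3g, the only tested genes of their lists, were called higher (log2 1.63 and 3.29). In these bulk samples fewer cells of a type and less RNA per cell cannot be told apart.

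Most of the pathway's central parts were lower in treated cells, and its ligand gene and 1 of its inhibitors were not. All 10 genes could be tested. Of these, 9 were called at an adjusted p under 0.05, where 74.8% of all tested genes were. The 9 comprised 8 called lower, where 40.2% of the 13290 tested genes were, and 1 called higher, where 34.6% were. The fallen genes were Smad1 to Smad6, Tgfbr1 and Tgfbr2, the risen gene was Tgfb1, and Smad7 did not pass. The 8 lower genes had no overlap between treated and control libraries (42% of all genes lie that way), and neither did Tgfb1 (35.9%). In either direction that is 9 of 10 genes, and 77.9% of all genes. The median log2 change of the 10 was −3.08, against −0.18 for all tested genes. Of the 10 genes, 5 fell at least 8-fold (Smad1, Smad2, Smad3, Smad4 and Smad6), as did 6.35% of all genes, a limit chosen after the values were seen.

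Values are CPM, counts brought to a common library size and scaled by TMM, which assumes that most genes keep their level relative to each other, and fold changes are on that scale. TMM factors averaged 0.699 in treated and 1.44 in control libraries. Scaling by library size alone lowers the median change of all genes by 1.03, holding mitochondrially encoded genes equal lowers it by 0.55, holding only their mRNAs equal by 0.58, taking factors from genes under 20 kb by 0.54 and holding ribosomal protein genes equal by 2.34. Of all called genes, 46.3% were higher with TMM, 22.3% by library size, 30% and 29.8% on the mitochondrial scales, 33.2% with genes under 20 kb and 2.58% with ribosomal protein genes held equal. The 8 falls were called under each scaling tried. The rise of Tgfb1 and the level of Smad7 depended on it, as given with each gene. Relative to the median of all genes, Tgfb1 lay 1.01 to 1.60 above it and Smad7 0.17 to 0.58 above it in each of the 22 alternatives.

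**Figure D1:**
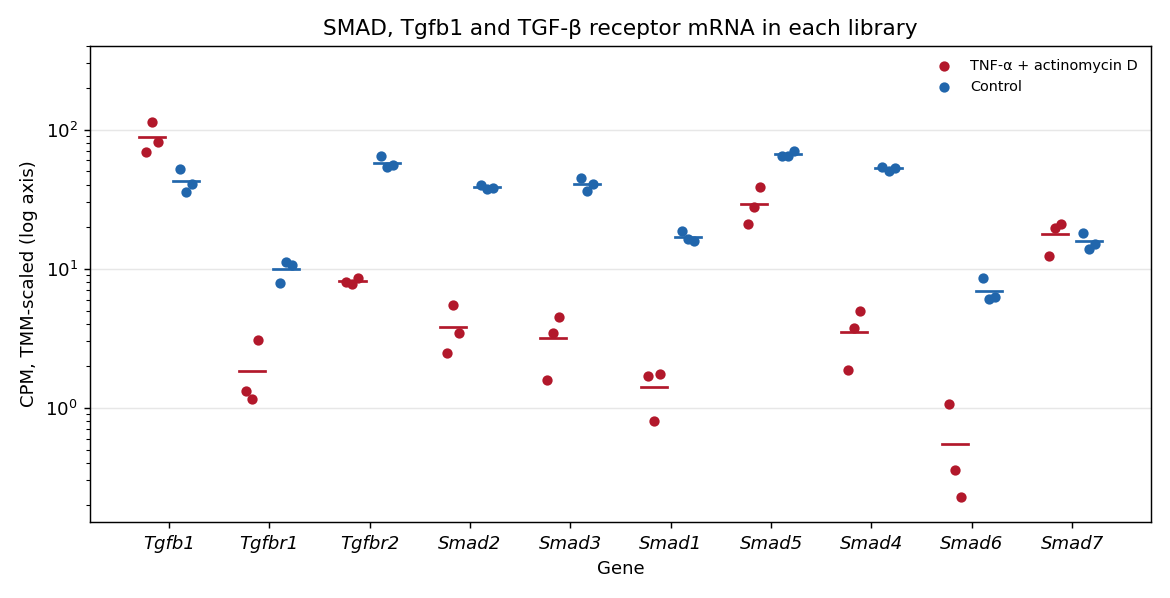
CPM of each gene (log axis) in the 3 libraries from cells given TNF-α with actinomycin D (red, left) and the 3 control libraries (blue, right), with horizontal bars for the means. Treated points lie below all control points for 8 genes, above them for Tgfb1, and overlap with them for Smad7.

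The ligand gene Tgfb1 was higher in treated cells. It encodes TGF-β1, which is secreted in a latent form and held in the matrix, and lies on chromosome 7 from 25687002 to 25705077 on the plus strand. It had 68.9, 113 and 81.6 CPM in treated libraries, against 51.8, 35.3 and 40.7 CPM in controls. Every treated value was above every control value, and the treated libraries were the more spread. The means were 87.9 ± 22.8 CPM in treated cells and 42.6 ± 8.43 CPM in controls (SD, n = 3 each), a log2 fold change of 1.04 ± 0.22 (SE) with an adjusted p of 0.00109 in edgeR's quasi-likelihood test. As a share of all counts the gene was level between groups, at 1.01 times the control share, and by library size its log2 change was 0.01. The call was also lost with mitochondrially encoded genes held equal (0.45, adjusted p = 0.255), and with ribosomal protein genes held equal Tgfb1 was called lower (−1.29). Its promoter is shown because Tgfb1 is the 1 gene of the set that was called higher. The sequence runs from 250 bases before to 30 after the annotated start, in the gene's direction, from RefSeq on GRCm38.p6 (chr7:25686752-25687031, plus strand), and capitals mark GC boxes, GGGCGG on either strand.
Tgfb1 promoter: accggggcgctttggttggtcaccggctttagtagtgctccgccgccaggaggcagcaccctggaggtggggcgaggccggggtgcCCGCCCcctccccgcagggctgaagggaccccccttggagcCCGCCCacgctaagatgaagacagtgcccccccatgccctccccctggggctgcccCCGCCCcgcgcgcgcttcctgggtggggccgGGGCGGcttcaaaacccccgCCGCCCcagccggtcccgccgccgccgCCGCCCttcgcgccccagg

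Both receptor genes were lower. Tgfbr2, for the type II receptor that binds the ligand, lies on chromosome 9 from 116084293 to 116175360 on the minus strand. It had 8.04, 7.78 and 8.63 CPM in treated libraries, against 64.1, 53.9 and 55.6 CPM in controls. The treated values were the tightest of the set, with the highest only 1.11 times the lowest, and lay far below the controls. The log2 fold change was −2.83 ± 0.18 (adjusted p = 4.96e-07), 7.1-fold lower, and −2.12 with a gene length offset. Tgfbr1, for the type I receptor kinase that phosphorylates Smad2 and Smad3, lies on chromosome 4 from 47353222 to 47414931 on the plus strand. It had 1.325, 1.149 and 3.054 CPM in treated libraries from 15, 13 and 40 counts, against 7.825, 11.16 and 10.67 CPM in controls. Treated replicate 3 was the highest treated library and still below the lowest control. The log2 fold change of −2.40 ± 0.37 (adjusted p = 0.000142) became −3.04 without treated replicate 3. The Tgfbr2 promoter (chr9:116175334-116175613, minus strand) is shown beside that of Tgfb1 as a fallen gene without a GC box, and capitals mark a SMAD box, CAGAC on either strand.
Tgfbr2 promoter: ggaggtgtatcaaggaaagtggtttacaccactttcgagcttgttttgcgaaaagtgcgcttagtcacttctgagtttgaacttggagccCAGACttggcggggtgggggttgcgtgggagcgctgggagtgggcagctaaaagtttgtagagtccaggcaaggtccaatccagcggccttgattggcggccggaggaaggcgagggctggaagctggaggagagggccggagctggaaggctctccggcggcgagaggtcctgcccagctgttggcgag

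The promoters of Smad3 and Smad6, which lie near each other on chromosome 9, are shown next to that of Tgfbr2 because both genes fell more than 10-fold. They run in the gene's direction and come from RefSeq on GRCm38.p6. Capitals mark GC boxes in both (chr9:63757965-63758244 for Smad3 and chr9:64022030-64022309 for Smad6, minus strand). In Smad6 they also mark the palindrome GTCTAGAC, which SMAD proteins bind with high affinity, starting 4 bases before the annotated start. Smad1 also fell more than 10-fold (11.9-fold), and its promoter is not shown. A link between GC boxes and the direction of change was not tested.
Smad3 promoter: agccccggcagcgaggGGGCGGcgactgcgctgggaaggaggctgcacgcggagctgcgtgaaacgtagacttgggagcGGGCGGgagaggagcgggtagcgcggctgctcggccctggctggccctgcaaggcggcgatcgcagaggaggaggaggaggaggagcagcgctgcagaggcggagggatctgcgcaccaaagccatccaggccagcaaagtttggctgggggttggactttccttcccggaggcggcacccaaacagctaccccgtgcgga
Smad6 promoter: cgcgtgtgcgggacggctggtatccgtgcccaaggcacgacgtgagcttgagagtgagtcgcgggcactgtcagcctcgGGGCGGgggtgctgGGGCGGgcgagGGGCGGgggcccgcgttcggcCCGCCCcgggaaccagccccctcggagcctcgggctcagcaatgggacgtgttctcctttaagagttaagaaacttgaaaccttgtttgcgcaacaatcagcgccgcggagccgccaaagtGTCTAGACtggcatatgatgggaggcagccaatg

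Both SMADs activated by TGF-β receptors fell more than 10-fold. Smad3, on chromosome 9 from 63646767 to 63757994 on the minus strand, binds DNA directly and carries much of the transcriptional response. It had 1.589, 3.448 and 4.504 CPM in treated libraries, against 45.0, 36.2 and 40.5 CPM in controls. Its log2 fold change was −3.66 ± 0.32 (adjusted p = 2.45e-06), 12.6-fold lower. Smad2, on chromosome 18 from 76241580 to 76305731 on the plus strand, is its close relative. It had 2.472, 5.481 and 3.435 CPM in treated libraries, against 39.9, 37.3 and 37.9 CPM in controls. Its log2 fold change was −3.34 ± 0.27 (adjusted p = 1.53e-06), 10.1-fold lower. In both genes the control libraries were tightly grouped and treated replicate 1 was the lowest. Per kilobase of gene model, Smad2 over Smad3 was 2.43, 2.48 and 1.19 in treated libraries and 1.39, 1.61 and 1.46 in controls with the deposited lengths, ranges that overlap.

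The SMADs activated by BMP receptors were both lower, by different amounts. Smad1, on chromosome 8 from 79338395 to 79399518 on the minus strand, had 1.678, 0.796 and 1.756 CPM in treated libraries from 19, 9 and 23 counts, against 18.8, 16.4 and 15.8 CPM in controls. Its log2 fold change was −3.58 ± 0.31 (adjusted p = 2.14e-06), 11.9-fold lower. Smad5, on chromosome 13 from 56703010 to 56742377 on the plus strand, had 21.1, 27.9 and 38.9 CPM in treated libraries, against 64.8, 64.4 and 70.3 CPM in controls. The groups were well apart, with the treated libraries widely spread and replicate 3 the nearest to the controls. Its log2 fold change was −1.18 ± 0.22 (adjusted p = 0.000458), 2.26-fold lower, and −0.54 (adjusted p = 0.043) with a gene length offset. Smad5 thus fell least of the 8 lower genes. Within a library, where scaling cancels, Smad5 over Smad1 per kilobase was 10.6, 29.6 and 18.7 in treated cells and 2.91, 3.31 and 3.75 in controls, a ratio of geometric means of 5.46 that lay between 4.26 and 7.12 when any 1 library was left out. Another gene of this class, Smad9, which is not among the 10 and is named for that relation, had 1.43 ± 0.51 CPM in treated cells and 4.74 ± 0.36 CPM in controls (log2 −1.72 ± 0.34, adjusted p = 0.000849).

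The common partner Smad4, which joins every activated SMAD complex, had the lowest log2 change with all 6 libraries on the TMM scale. It lies on chromosome 18 from 73639009 to 73703780 on the minus strand and had 1.854, 3.713 and 4.962 CPM in treated libraries, against 54.2, 50.7 and 52.7 CPM in controls. The control libraries hardly varied, and all treated libraries were far below them. The log2 fold change of −3.89 ± 0.30 (adjusted p = 1.18e-06), 14.8-fold lower, was followed by Smad6, Smad3 and Smad1, and differences from these were not tested. Smad6 was the lower of the pair without treated replicate 1 (−4.64 against −3.68 for Smad4) and with the gene length offset and replicate block (−4.05 against −4.02). Only 2.1% of tested genes had a lower log2 change.

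The inhibitory SMADs parted ways. Smad6, which acts mainly on BMP signalling, lies on chromosome 9 from 63953076 to 64022059 on the minus strand. It had 12, 4 and 3 counts in treated libraries, or 1.06, 0.354 and 0.229 CPM, against 208, 147 and 157 counts, or 8.61, 6.01 and 6.20 CPM, in controls. Its log2 fold change was −3.67 ± 0.47 (adjusted p = 3.41e-05), 12.8-fold lower, the widest error of the 10 genes. Treated replicate 1, which was the lowest treated library for 6 of the 10 genes, was the highest for Smad6, and without it the change was −4.64. Smad7, which blocks the type I receptor and recruits ubiquitin ligases to it, lies on chromosome 18 from 75367529 to 75395935 on the plus strand. It had 12.3, 19.7 and 21.0 CPM in treated libraries, against 18.1, 13.9 and 15.1 CPM in controls. Treated replicate 1 lay below all controls and the other treated libraries above them, so the groups overlapped. The means were 17.7 ± 4.71 CPM in treated cells and 15.7 ± 2.17 CPM in controls, a log2 fold change of 0.17 ± 0.24 that did not pass (adjusted p = 0.526). Smad7 was called lower by library size alone (−0.84, adjusted p = 0.025) and with ribosomal protein genes held equal (−2.13). Per kilobase, Smad7 over Smad6 was 8.21, 39.5 and 65 in treated libraries and 1.49, 1.64 and 1.72 in controls. That ratio rose 17.1-fold between geometric means, or 11.2-fold to 31.4-fold with any 1 library left out, and it does not depend on scaling. Smad7 over Smad4 was 5.43, 4.36 and 3.47 in treated libraries and 0.274, 0.225 and 0.235 in controls, a steadier ratio that was 17.9-fold higher in treated cells.

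**Figure D2:**
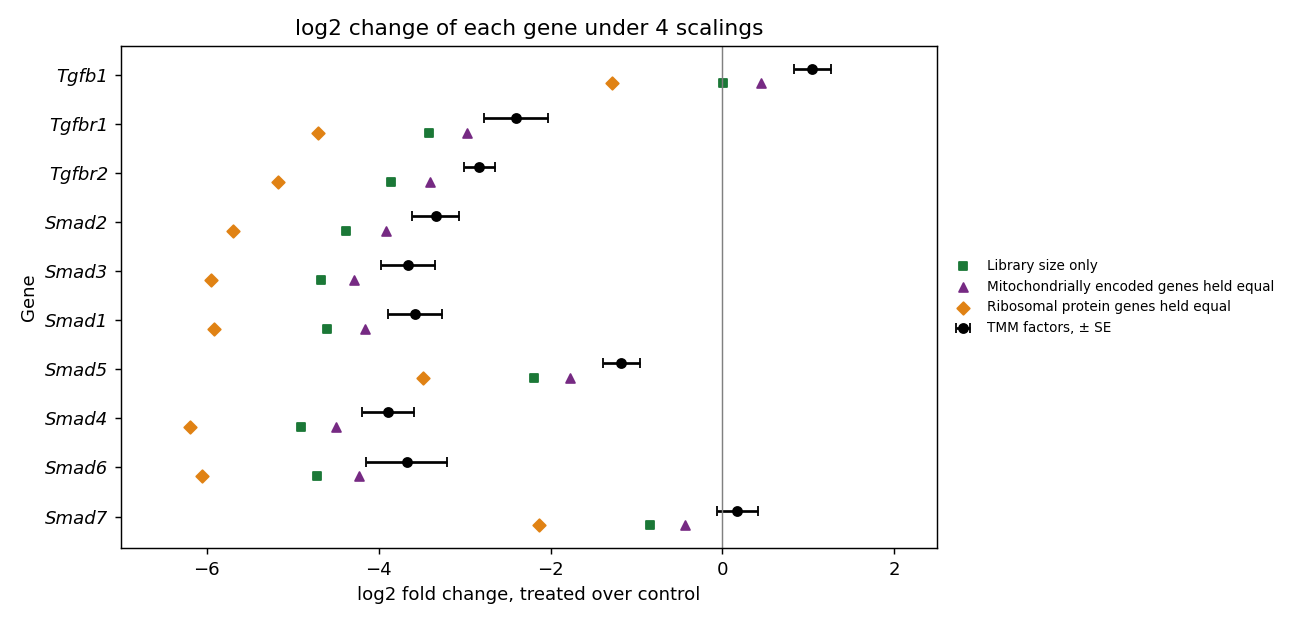
log2 fold change (treated over control) of each gene with TMM factors (black, ± SE) and under library size, mitochondrially encoded or ribosomal protein gene scaling. Each of these other scalings shifts all 10 genes to the left by nearly the same amount, and 8 genes stay below 0 throughout. Smad7 falls below 0 under each of them, and Tgfb1 only with ribosomal protein genes held equal.

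The make-up of SMAD mRNA changed with these falls. Summed per kilobase, the 7 SMAD genes stood at 10.8 ± 2.92 CPM per kb in treated cells and 49.6 ± 2.73 CPM per kb in controls. Smad7 made up 35.5%, 37.8% and 34.8% of that sum in treated libraries, against 7.64%, 6.55% and 6.74% in controls. Smad5 made up 36.4% ± 3.39 in treated cells and 18.1% ± 1.28 in controls. Smad4 was 8.41% ± 1.75 in treated cells and 28.6% ± 0.623 in controls, where it was the largest part. Smad2 was 9.92% ± 3.15 in treated cells and 21.8% ± 0.492 in controls, and Smad3 was 5.08% ± 1.2 in treated cells and 14.7% ± 0.784 in controls. Smad1 and Smad6 were small parts in both groups, at 2.24% and 1.94% in treated cells and 5.47% and 4.35% in controls. The place of Smad2 rests on its deposited gene length of 3549 bases, where the GENCODE M21 annotation of GRCm38 has 8781 bases of merged exons. The other 9 genes had the same length in both. Whether the deposited counts take in reads from the further bases of Smad2 is not known. If they do not, the longer length understates Smad2. With the longer length Smad2 was 4.28% ± 1.45 in treated cells and 10.1% ± 0.263 in controls, below Smad3 at 5.4% ± 1.26 in treated cells and 16.9% ± 0.846 in controls, and Smad7 was 38.3% ± 2.48 in treated cells and 8.01% ± 0.648 in controls. These shares do not depend on the scaling between libraries, and they describe the same values as the fold changes above.

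**Figure D3:**
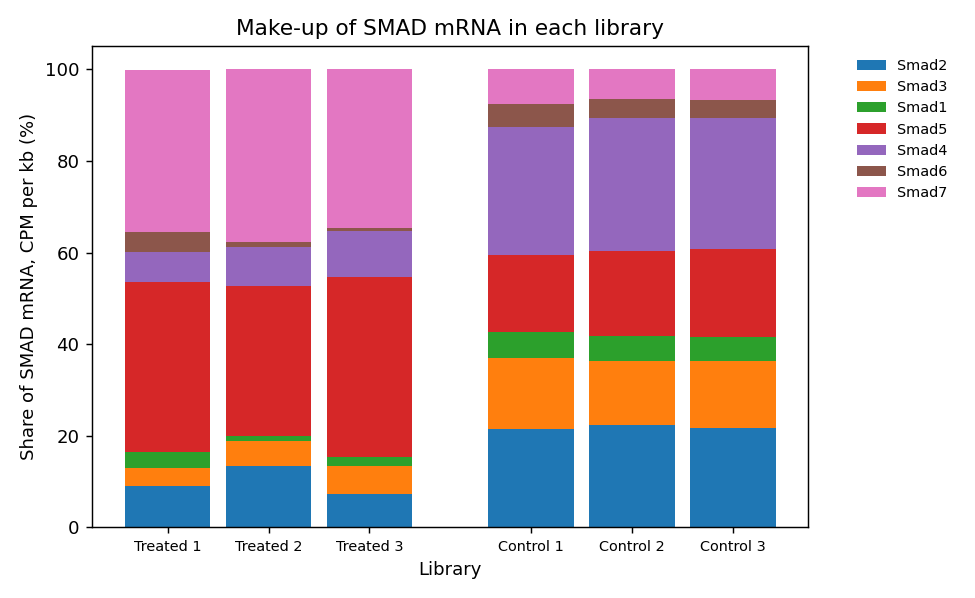
Share of the summed level (CPM per kb, in %) that each of the 7 SMAD genes takes in each library, with the 3 treated libraries on the left. Smad7 and Smad5 together fill most of each treated bar, whereas Smad4 and, with the deposited gene length, Smad2 are the largest parts of each control bar.

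The order of levels per kilobase differed between groups as well. In treated cells Tgfb1 was first at 17.4 CPM per kb, above every other gene in each library. Smad5 (3.95) and Smad7 (3.91) came next and overlapped with each other, and both lay above the rest. Smad2 (1.07), Tgfbr2 (0.995), Smad4 (0.945), Smad3 (0.574), Tgfbr1 (0.282), Smad1 (0.225) and Smad6 (0.171) followed, each overlapping with its neighbour. In controls Smad4 was first at 14.2 CPM per kb, then Smad2 at 10.8, each apart from the next gene. Smad5 (8.96), Tgfb1 (8.45), Smad3 (7.32) and Tgfbr2 (7.07) overlapped from one to the next. Smad7 (3.47) stood apart below them, then Smad1 (2.71) and Smad6 (2.17), which overlapped, and Tgfbr1 was last at 1.51. The ligand to type II receptor ratio per kilobase was 13.9, 23.6 and 15.4 in treated libraries and 1.31, 1.06 and 1.19 in controls, while Tgfbr1 over Tgfbr2 overlapped between groups at 0.207, 0.185 and 0.444 against 0.153, 0.26 and 0.24. With the GENCODE length given above, the level of Smad2 was 0.432 CPM per kb in treated cells and 4.37 CPM per kb in controls. That would put Smad2 below Smad3 in both groups, provided the deposited counts cover the longer model, which is not known.

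Treated libraries differed among themselves in a common direction. Of the 10 genes, 7 were highest in treated replicate 3 and 6 were lowest in treated replicate 1. These libraries also had the most and the fewest genes with a count among treated libraries, and on the first principal component of all genes (86.8% of the variance) replicate 3 lay nearest the controls. The part of this difference in the values above was not tested. No call among the 10 genes was lost or gained when any 1 library was left out.

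Gene body length went with the size of the change. Tgfb1 has the shortest gene body of the set at 18.1 kb, followed by Smad7 at 28.4 kb and Smad5 at 39.4 kb, and these were the genes that rose, did not pass and fell least. The other 7 run from 61.1 kb (Smad1) to 111.2 kb (Smad3), and all 7 had log2 changes of −2.40 or lower. Over the 10 genes, Spearman's rho between gene body and log2 change was −0.76, a description of genes that share the same libraries. Over the 11470 tested protein-coding genes it was −0.34. Their median log2 change was 0.68 under 10 kb, 0.01 from 10 to 20 kb, −0.53 from 20 to 40 kb, −0.99 from 40 to 80 kb and −1.19 above 80 kb. Most of the long members lay low within their own length class. These classes are matched on gene body alone, and any part of length in the changes was not tested. Smad4 was at the 2.9th percentile of the 1916 genes between 40 and 80 kb, Smad6 at the 3.8th, Smad1 at the 4.3rd, Smad2 at the 6.3rd and Tgfbr1 at the 19.6th. Above 80 kb, Smad3 was at the 3.9th and Tgfbr2 at the 12.7th percentile of 1789 genes. The 3 shorter genes lay nearer the middle of theirs, Smad5 at the 35.9th, Smad7 at the 64.1st and Tgfb1 at the 71.4th percentile. For the length of the mature gene model, rho was −0.39 over the protein-coding genes, and over the 10 genes it had the other sign, at 0.39.

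**Figure D4:**
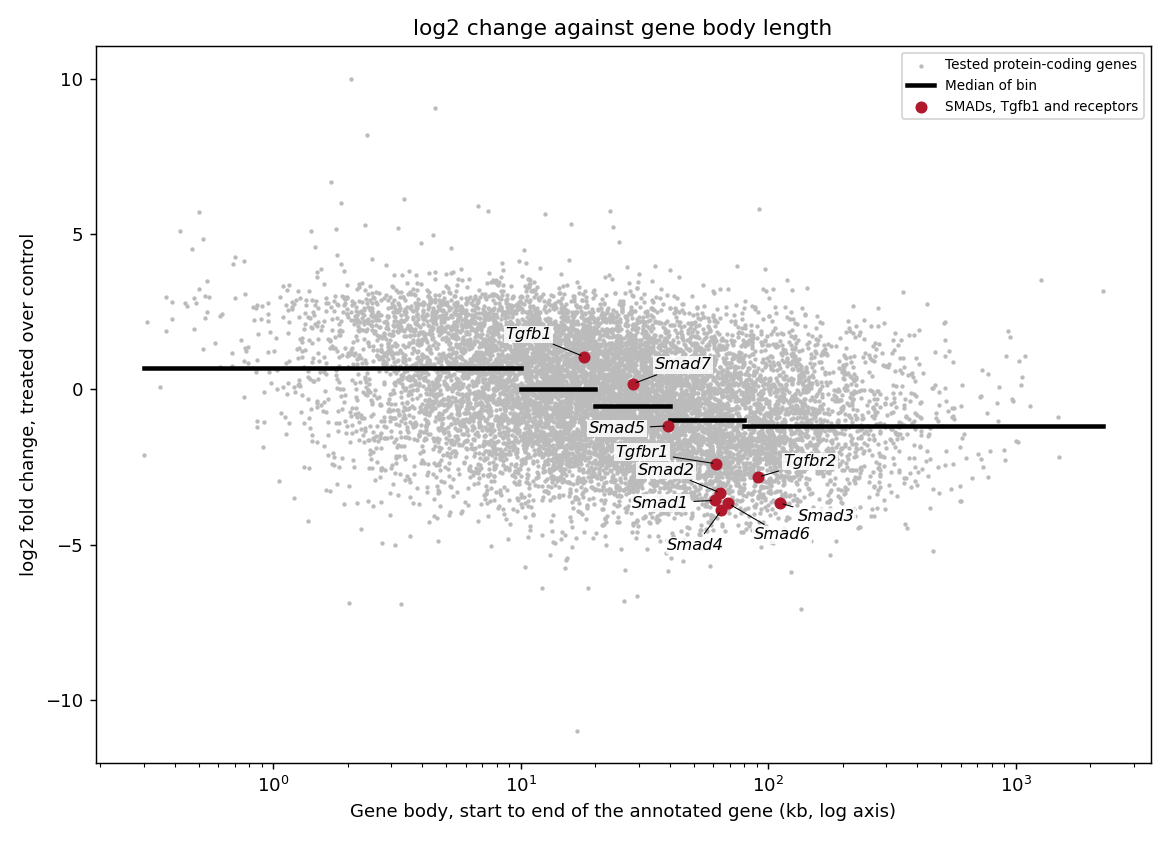
log2 fold change (treated over control) against the length of the gene body (kb, log axis) for tested protein-coding genes (grey) and the 10 genes (red), with black bars for the medians of 5 length classes. Class medians step down from 0.68 to −1.19, and the 7 longest red genes lie below the median of their class.

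GC boxes were the most widely shared of the motifs searched in the promoters. The RefSeq promoter table held 7 of the 10 genes (not Smad2, Smad4 or Smad7), some with several starts. On the windows of 280 bases, the promoters shown above held 28 CpG in Tgfb1, 27 in Smad6, 25 in Smad3 and 15 in Tgfbr2. Those of Smad1 and Smad5 held 28 to 31, the starts of Tgfbr1 held 33 and 3, and the median over all promoters was 6. GC boxes numbered 6 in Tgfb1, 4 in Smad6, 2 in Smad3, 1 in Smad1 and 0 in Tgfbr2. The 3 starts of Smad5 had 1, 1 and 7, and the 2 starts of Tgfbr1 had 2 and 0. Thus 6 of the 7 genes had a GC box in at least 1 of their windows. Counted by window and not by gene, 34.7% of all 32851 promoters hold at least 1, a share not matched for CpG. The palindrome GTCTAGAC is in 0.192% of all promoters (63 of 32851) and, among these genes, in that of Smad6. CAGAC, which is in 46.8% of all promoters, was found in that of Tgfbr2 and in 1 further start each of Smad5 and Tgfbr1. AP-1 (TGACTCA), cAMP response (TGACGTCA) letters and the NF-κB consensus of the immunoglobulin κ enhancer, searched on both strands, and TATAAA, searched on the gene's strand, were in none of the windows, and they are in 4.94%, 1.74%, 0.149% and 8.02% of all promoters. Overlapping matches of one motif were each counted. A match describes letters and not a bound site.

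The 3' untranslated regions (UTRs), taken from 1 protein-coding GENCODE M21 transcript per gene, were unlike each other. That of Tgfb1 had 135 bases, shorter than all but 2.6% of 10818 tested genes with at least 100 bases. Those of Smad2, Smad5, Tgfbr1 and Smad3 had 6233, 4899, 4154 and 3495 bases, all at or above percentile 90.1. The Smad2 transcript used here has 8089 bases, while the deposited Smad2 gene length is 3549 bases, less than this UTR alone. Part of the Smad2 UTR thus lies outside the deposited model. AUUUA, the core of AU-rich elements that shorten mRNA life, occurred 17 times in Smad2, 6 times in Smad5, 5 times in Tgfbr1, 4 times each in Smad3 and Smad7, 2 times each in Smad4 and Smad6, 1 time in Tgfb1 and not at all in Smad1 and Tgfbr2. The longer form UAUUUAU occurred 2 times in Smad2 and Smad3 and 1 time in Smad5, Smad6 and Smad7. Of the 10818 genes, 71.1% hold none, 19.3% hold 1 and 9.7% hold 2 or more. The median log2 change was −0.14 without it, −0.90 with 1 and −1.05 with 2 or more. The median UTR length in these classes was 796, 1714 and 2744 bases. Of the genes that hold it, Smad2, Smad3, Smad5 and Smad6 fell and Smad7 did not pass. Of those without it, Smad1, Smad4, Tgfbr1 and Tgfbr2 fell and Tgfb1 rose. Any part of UAUUUAU in these changes was not tested. The sites in Smad3, Smad5 and Smad6 are shown as cDNA letters with TATTTAT in capitals.
Smad3, base 2911 of its UTR: ccgctttcgTATTTATgtaacaatt
Smad3, base 3354 of its UTR: aaaagcatgTATTTATagtgtttta
Smad5, base 1618 of its UTR: ctgtgccatTATTTATtgcctttca
Smad6, base 187 of its UTR: caacgtaatTATTTATatatggtgc

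The other genes of the pathway are given by list, and each count can be set beside all tested genes, of which 34.6% were higher and 40.2% lower. Other ligands of the family were few. Of 20 listed, 4 could be tested, 2 were higher and 0 lower. Gdf15, a stress-induced member, had 202 ± 41.3 CPM in treated cells and 47.9 ± 7.97 CPM in controls, a log2 change of 2.08 ± 0.19 (adjusted p = 3.33e-06) that was 1.14 with a gene length offset and turned to −0.28 with ribosomal protein genes held equal. Inha, for the inhibin alpha subunit, had 4.26 ± 0.959 CPM in treated cells and 0.937 ± 0.207 CPM in controls (log2 2.18 ± 0.36, adjusted p = 0.000225). Its change was 1.02 with the offset (adjusted p = 0.0248) and −0.12 with ribosomal protein genes held equal. The isoform genes of Tgfb1 are named here for that relation, and neither was called. Tgfb3 had 5.76 ± 2.88 CPM in treated cells and 4.94 ± 1.4 CPM in controls (adjusted p = 0.623), and Tgfb2, with 3 counts over the treated libraries and 1 over the controls, was too low to test.

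Proteins that hold TGF-β latent in the matrix, together with extracellular antagonists, went both ways, with 4 of 12 tested genes higher, 3 lower and 5 not past the threshold. Ltbp3, which binds latent TGF-β1, had 669 ± 82.3 CPM in treated cells and 158 ± 26.1 CPM in controls (log2 2.09 ± 0.18), and −0.24 with ribosomal protein genes held equal. Its relative Ltbp4 had 847 ± 128 CPM in treated cells and 251 ± 36.4 CPM in controls (log2 1.76 ± 0.18), and −0.56 on that scale. Lrrc32, which presents latent TGF-β on the cell surface, had 6.65 ± 3.18 CPM in treated cells and 57.8 ± 7.9 CPM in controls (log2 −3.11 ± 0.30). Bmper, a secreted BMP regulator, had 0.865 ± 0.576 CPM in treated cells and 12.6 ± 0.984 CPM in controls (log2 −3.86 ± 0.41, and −4.45 without treated replicate 1). Adjusted p-values of these genes were 8.32e-06 or less.

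Of 15 other tested type I, type II and co-receptor genes of the family, 9 fell (40.2% of all genes did), 3 rose (34.6% of all genes did) and 3 did not pass. Their median log2 change was −2, against −0.18 over all genes. Acvr1, a type I receptor for BMPs and activins, had 1.81 ± 0.811 CPM in treated cells and 25.4 ± 3.25 CPM in controls (log2 −3.81 ± 0.31, adjusted p = 1.41e-06). Bambi, a pseudoreceptor that blocks signalling, had 7 counts over the treated libraries and 214 over the controls (log2 −3.84 ± 0.68, adjusted p = 0.000372, and −4.56 without treated replicate 2). Cd109, a co-receptor that dampens TGF-β signalling, had 182 ± 36.7 CPM in treated cells and 67.5 ± 3.4 CPM in controls (log2 1.43 ± 0.17, adjusted p = 1.94e-05), which library size scaling left uncalled (0.41) and which turned to −0.89 with ribosomal protein genes held equal. Amhr2, the receptor for anti-Müllerian hormone, rose barely past the threshold at 5.33 ± 1.64 CPM in treated cells and 3.18 ± 0.239 CPM in controls (log2 0.74 ± 0.31, adjusted p = 0.0489). That call was lost without any 1 library other than treated replicate 3, with no filter, in limma-voom, with a replicate block (0.70, adjusted p = 0.0856), on both mitochondrial scales and with factors from genes under 20 kb. The change was negative by library size (−0.33), with ribosomal protein genes held equal (−1.67) and with a gene length offset (−0.12).

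Regulators and partners of SMADs were lower in 17 of 25 tested genes and higher in 4, where all tested genes were lower in 40.2% and higher in 34.6%. Their median log2 change was −1.19. Ep300, the acetyltransferase that SMAD complexes recruit to promoters, had 1.93 ± 1.62 CPM in treated cells and 46.1 ± 2.17 CPM in controls (log2 −4.55 ± 0.56). That was −5.16 without treated replicate 3, −5.43 in limma-voom and −3.50 with a gene length offset. Ski, a corepressor of Smad3 and Smad4, had 17.9 ± 6.22 CPM in treated cells and 169 ± 24.3 CPM in controls (log2 −3.24 ± 0.26). Fkbp1a, whose product keeps the type I receptor silent, had 2160 ± 277 CPM in treated cells and 581 ± 89.4 CPM in controls (log2 1.89 ± 0.19), and was called lower with ribosomal protein genes held equal (−0.47). Usp11, a deubiquitinase of the type I receptor, had 2.82 ± 0.318 CPM in treated cells and 0.501 ± 0.0579 CPM in controls (log2 2.48 ± 0.40), a call lost on that scale (0.14). Adjusted p-values of these genes were 0.000187 or less.

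Target genes of the TGF-β and BMP arms had different medians. Of 31 listed targets of Smad2 and Smad3, 20 could be tested and the rest had too few counts. Among the 20, 11 rose and 6 fell, with a median log2 change of 0.92. Of 15 listed targets of Smad1 and Smad5, 11 could be tested, of which 2 rose and 7 fell, with a median of −1.46. Both medians are on the TMM scale. Library size alone lowers the median of all genes by 1.03, and holding ribosomal protein genes equal lowers it by 2.34. A difference between the lists was not tested. Junb, an AP-1 gene that many other stimuli also induce, had 312 ± 50 CPM in treated cells and 48.1 ± 7.56 CPM in controls (log2 2.70 ± 0.19, and 1.98 with a gene length offset), and was not called once ribosomal protein genes were held equal (0.39). Snai1, a repressor of epithelial genes, had 2.77 ± 1.17 CPM in treated cells and 26.1 ± 3.21 CPM in controls (log2 −3.23 ± 0.31, and −4.30 with the offset), and the transcription factor gene Bhlhe40 had 7.23 ± 2.8 CPM in treated cells and 45.4 ± 7.18 CPM in controls (log2 −2.64 ± 0.27). Among BMP targets, Id1, an inhibitor of helix-loop-helix factors, had 83.2 ± 10.8 CPM in treated cells and 18.6 ± 3.71 CPM in controls (log2 2.16 ± 0.19), 0.77 with a gene length offset and −0.20 with ribosomal protein genes held equal. Its relative Id3 had 29.2 ± 6.98 CPM in treated cells and 14.6 ± 1.51 CPM in controls (log2 1.00 ± 0.22), −0.06 by library size, −1.38 with ribosomal protein genes held equal and 0.03 with a gene length offset, and its call was also lost on both mitochondrial scales and with factors from genes under 20 kb. Atoh8, a helix-loop-helix factor gene, had 1.21 ± 0.733 CPM in treated cells and 23.1 ± 4.03 CPM in controls (log2 −4.25 ± 0.37, −4.89 without treated replicate 2 and −4.87 with the offset). Adjusted p-values of these genes were 0.00144 or less. The matrix genes Col1a1, Col1a2, Col3a1 and Fn1 stand on both the first of these lists and that of fibroblast markers, whose summed level is given above, and their part in the median was not tested. Among tested genes, Bambi, Smad9 and Grem1 of the BMP list and Skil and Ltbp2 of the other also count in pathway lists above.

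**Figure D5:**
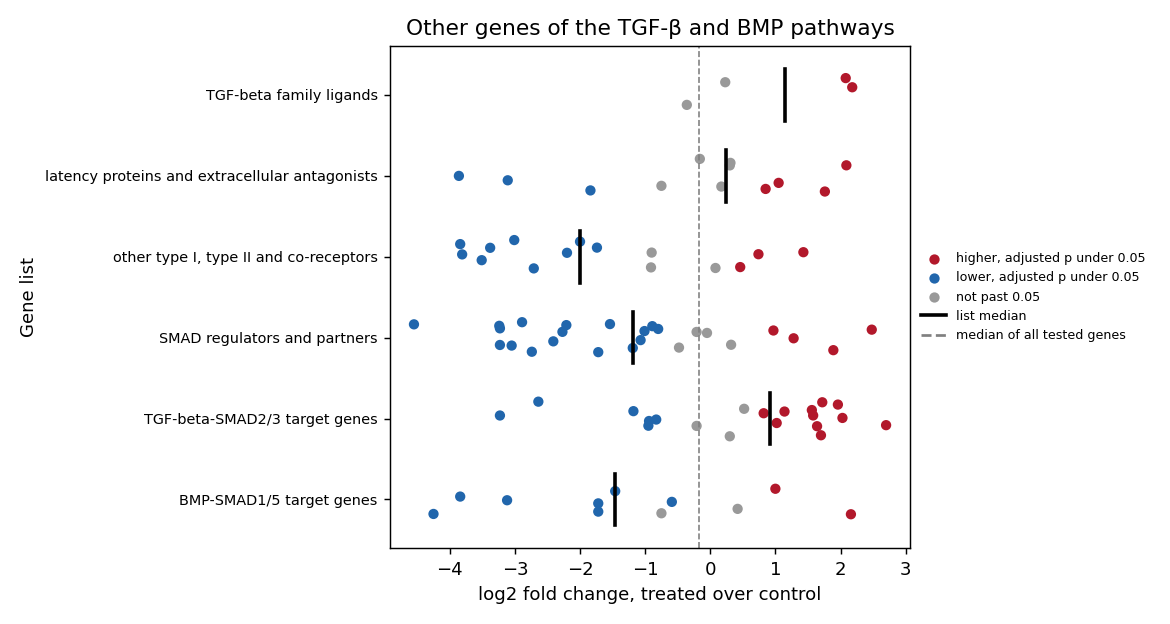
log2 fold change (treated over control, TMM scale) of each tested gene in 6 lists of the pathway, red where higher and blue where lower at an adjusted p under 0.05, with black bars for list medians and a dashed line for all genes (−0.18). The medians lie left of the dashed line for other receptors (−2), SMAD regulators (−1.19) and BMP targets (−1.46), and right of it for the other 3 lists.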

How the data were processed

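The authors' deposited table holds whole-number counts per gene, and a second deposited table holds FPKM values, each equal to count over gene length times 1 constant per library (1.22 to 1.64 times the value by library total in treated libraries, 0.635 to 0.719 in controls). Gene lengths in bases, a value of type other, are per the file headers. Per the submitters' processing notes, which state no role or order, the tools were RSEM 1.3.1, HISAT2 2.1.0 and DESeq2 1.24.0, with GRCm38 and mm10 as builds. Strand handling and shared reads are not given in the sources used here. The only genes overlapping a member are 3 small RNA genes in Smad5, with 0 counts over the treated and at most 2 over the control libraries.

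Each column took its sample from the number and treatment in its name, where WT stands for control. The edgeR function filterByExpr kept 13290 of 24708 genes with a count. Counts were TMM-scaled and tested over all kept genes with edgeR 4.0.16 (glmQLFit, robust, and glmQLFTest; R 4.3.3). The contrast was treated over control, p-values were adjusted by Benjamini-Hochberg, and 0.05 was the threshold. Standard errors are the size of the log2 change divided by the root of F. CPM per kb divides by the deposited length. The 10 genes and the lists were chosen with earlier results of these data known, and pathway lists are given by counts and medians with no set test. All 10 genes are named, and from each list the largest called changes (up to 2 per direction, averaging at least 1 CPM over the libraries). Others are named with the reason. Of the genes so chosen, 1 is not reported here. Alternatives were other scalings and filters, DESeq2 1.42.0, limma 3.58.1 (voom, or log2 FPKM with a pseudocount), a replicate block, a gene length offset and leaving out each library. The fit was also run on simulated data with few genes changed, equally in both directions, which does not test the scaling. Figures used matplotlib 3.10.9.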

Additional observations from a re-analysis of the deposited data

How the results depend on the processing

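The 8 lower members were called lower in each of the 22 alternatives where they could be tested. Tgfbr1 fell under the FPKM minimum, which left 7. The member median was −4.12 by library size, −5.43 with ribosomal protein genes held equal, −3.65 with mitochondrially encoded genes and −3.66 with their mRNAs held equal, −3.63 with factors from genes under 20 kb, −2.97 with median-ratio factors and in DESeq2, −2.92 with upper-quartile factors, −3.24 with no filter, −2.95 with a stricter one, −2.60 with a gene length offset (−2.62 with the replicate block) and −1.56 on log2(FPKM + 1), which understates changes of low genes. Leaving out 1 library gave −3.17 to −3.05. Relative to all genes the median lay between −3.08 and −1.56. The mitochondrial mRNA scale, the factors from genes under 20 kb and the longer Smad2 length were added after the data were seen.

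Library size, mitochondrially encoded genes, their mRNAs and ribosomal protein genes held equal gave 0 members called higher (1 otherwise), 2276, 2691, 2739 and 289 genes called higher (4604 with TMM) and 15, 16, 16 and 0 pathway list genes called higher (26 with TMM). With ribosomal protein genes held equal, 10917 genes and 73 list genes were called lower (5337 and 40 with TMM). Smad7 was negative by library size (−0.84), with ribosomal protein genes (−2.13), mitochondrially encoded genes (−0.44) or their mRNAs (−0.43) held equal and with factors from genes under 20 kb (−0.36), and ran from 0 to 0.30 without 1 library. Tgfb1 was −1.29 with ribosomal protein genes held equal, as were Gdf15 −0.28, Inha −0.12, Ltbp3 −0.24, Ltbp4 −0.56, Amhr2 −1.67, Cd109 −0.89, Fkbp1a −0.47, Id1 −0.20 and Id3 −1.38. Amhr2 was −0.33 and Id3 −0.06 by library size, and Amhr2 −0.12 with a gene length offset (−0.16 with the replicate block). A scaling shifts all genes together by construction; the cause of the other changes was not tested.

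Replicate numbers showed no clear pairing of the samples, which 3 libraries per group cannot exclude. Correlations of deviations between same-numbered libraries were 0.22, −0.137 and 0.029, and those between differently numbered ones ran from −0.377 to 0.383. With the replicate block, 8 members were lower and 1 higher, the member median was −3.10, and 4450 genes were higher and 5411 lower. Depth limits Smad6, with 3 to 12 counts in a treated library.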
